A study of Mus musculus with 39 samples.

Results

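The genes of the cell division cycle described here are 43 of the 24062 gene symbols that each count file lists: 11 genes of DNA replication and 32 genes of mitosis, matched by symbol. All 43 were found. They were read in 39 RNA libraries from the aortic roots of female Apoe-/- mice (B6.129P2-Apoe tm1Unc), which lack apolipoprotein E and form atherosclerotic plaques. Every mouse was bought at 8 weeks of age, spent 12 weeks on a diet high in cholesterol and received, at 20 weeks, 4 intravenous injections over 7 days. The mice were killed 24 hours after the final injection, and areas rich in CD68, a macrophage protein, were cut by laser from 6 µm sections. The RNA was amplified before sequencing. TRAF6i-HDL, high-density lipoprotein nanoparticles with an inhibitor of TRAF6 signalling downstream of CD40, was given to the mice behind 10 libraries. Another 10 libraries came from mice given mTORi-HDL, which carries rapamycin, and 9 from mice given S6K1i-HDL, which carries PF-4708671, each drug at 5 mg/kg. The control libraries, 10 in number, came from mice given PBS. No library of mice given empty nanoparticles was analysed here, so drug and carrier cannot be told apart. The labels do not say that libraries of a group came from separate mice, so p-values measure the spread between these libraries.

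The series lists the mTORi-HDL libraries in 2 sets, replicates 1-4 and replicates 5-10, and the S6K1i-HDL libraries likewise as replicates 1-6 and 7-9. The TRAF6i-HDL and PBS libraries stand next to the first sets. The labels do not say what separates the sets, so a difference between them cannot be told apart from an unrecorded difference in handling.

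A dividing cell copies its DNA in S phase and separates the copies in mitosis. The replication genes are switched on at the entry to S phase by E2F factors. They encode the MCM helicase, which opens the double helix, the clamp PCNA, which holds the polymerases on DNA, and the enzymes that make deoxynucleotides. The mitosis genes are switched on later, in G2 and mitosis, by the MYB-MuvB and FOXM1 complexes. These and the DREAM complex bind CHR elements, often beside CCAAT boxes bound by NF-Y. Macrophages divide within mouse plaques, and mTOR, the target of rapamycin, promotes growth and entry into the cell cycle through S6K1 among other routes.

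Levels are given in CPM, which are counts scaled to a common library size by the trimmed mean of M-values. The libraries held between 50091 and 6833491 counts in genes, and 3 held under 200000: TRAF6i-HDL replicate 7, S6K1i-HDL replicate 1 and PBS replicate 9. In those 3 a floor of 3 counts equals 29.0, 23.7 and 37.9 CPM, above the level of most of the genes described here. The mTORi-HDL libraries were deep, with 1825755 to 4481535 counts in replicates 1-4 and 1905332 to 4875794 in replicates 5-10. A count of 0 in a shallow library is a limit of depth.

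Of the 43 genes, 37 were expressed highly enough to be tested among 10411 genes, namely all 11 replication genes and 26 of the 32 mitosis genes. The 6 genes below the filter were Ccnb1, Plk1, Aurka, Ttk, Cdc20 and Kif20a, with 143 to 237 counts each over the 39 libraries. Levels per kilobase of transcript were uneven in the PBS libraries. Pcna stood highest at a mean of 31.3 CPM per kb, followed by Smc4, a condensin subunit, at 23.2 and Mki67, which encodes the proliferation marker Ki-67, at 9.69. The lowest was Aurka, a spindle-pole kinase, at 0.361 CPM per kb. Because of that spread, Pcna made up a median of 39.0% of the summed CPM of the replication genes, and Smc4 and Mki67 made up 23.2% and 20.5% of the mitosis sum.

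The summed level of the 32 mitosis genes set mTORi-HDL replicates 1-4 apart from every other library. It was 219 to 257 CPM (median 230.1) in these 4 libraries, against 394 to 522 CPM (median 451) in mTORi-HDL replicates 5-10. The other groups spanned 358 to 621 CPM (median 490) with TRAF6i-HDL, 269 to 464 CPM (median 342) with S6K1i-HDL and 340 to 962 CPM (median 477) with PBS. No library outside mTORi-HDL replicates 1-4 reached down to their range. Leaving out Mki67 and Smc4, the 2 largest contributors, the mitosis sum was 96.7 to 112 CPM in replicates 1-4, 205 to 285 CPM in replicates 5-10 and 196 to 575 CPM with PBS. The summed replication genes overlapped throughout, at 130 to 190 CPM in replicates 1-4, 112 to 203 CPM in replicates 5-10 and 123 to 278 CPM with PBS. That sum was not repeated without Pcna, its largest contributor. The mean log2 CPM of the replication genes, in which each gene weighs alike, also overlapped. It was 2.84 to 3.17 in replicates 1-4, 2.87 to 3.63 in replicates 5-10 and 2.59 to 3.91 with PBS. In a bulk sample, fewer dividing cells and less of these RNAs per cell cannot be told apart.

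**Figure D1:**
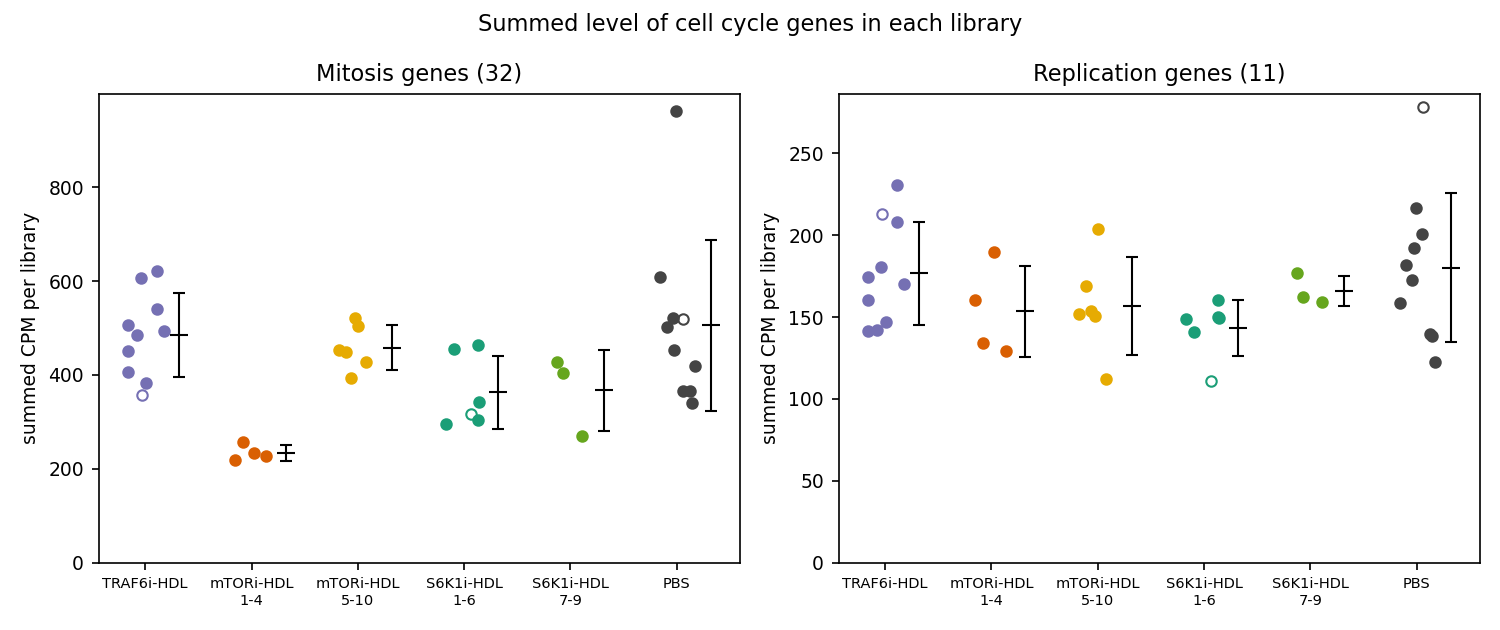
Summed level of the 32 mitosis genes (left) and the 11 replication genes (right), in CPM, with 1 point per library by group; bars are the mean and SD, and open points are the 3 libraries under 200000 counts. The 4 libraries of mTORi-HDL replicates 1-4 lie between 219 and 257 CPM in the mitosis panel, below all others, and lie within the range of the others in the replication panel.

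The ratio of the mitosis sum to the replication sum also split the 2 mTORi-HDL sets, but did not set replicates 1-4 apart from the other groups. It was 1.23 to 1.92 in mTORi-HDL replicates 1-4 and 2.48 to 3.82 in replicates 5-10, with no overlap. It was 1.82 to 4.44 with PBS, 1.68 to 3.41 with TRAF6i-HDL and 1.69 to 3.24 with S6K1i-HDL, each of which overlaps the first set at its low end. The S6K1i-HDL value of 1.69 belongs to replicates 7-9, and the TRAF6i-HDL value of 1.68 to the shallow replicate 7. On the log2 scale, the mean over the 26 tested mitosis genes lay 0.64 to 0.97 below that of the 11 replication genes in replicates 1-4. In replicates 5-10 the difference between the means ran between -0.34 and 0.29, and with PBS between -1.63 and 0.63. It ran between -0.77 and 0.24 with TRAF6i-HDL and between -0.77 and 0.09 with S6K1i-HDL, ranges that also reach that of replicates 1-4. The low end of the PBS range is a library of 50091 counts, replicate 9. Both values of -0.77 also belong to libraries under 200000 counts, TRAF6i-HDL replicate 7 and S6K1i-HDL replicate 1. S6K1i-HDL replicates 7-9 reached down only to -0.61, above the range of mTORi-HDL replicates 1-4.

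**Figure D2:**
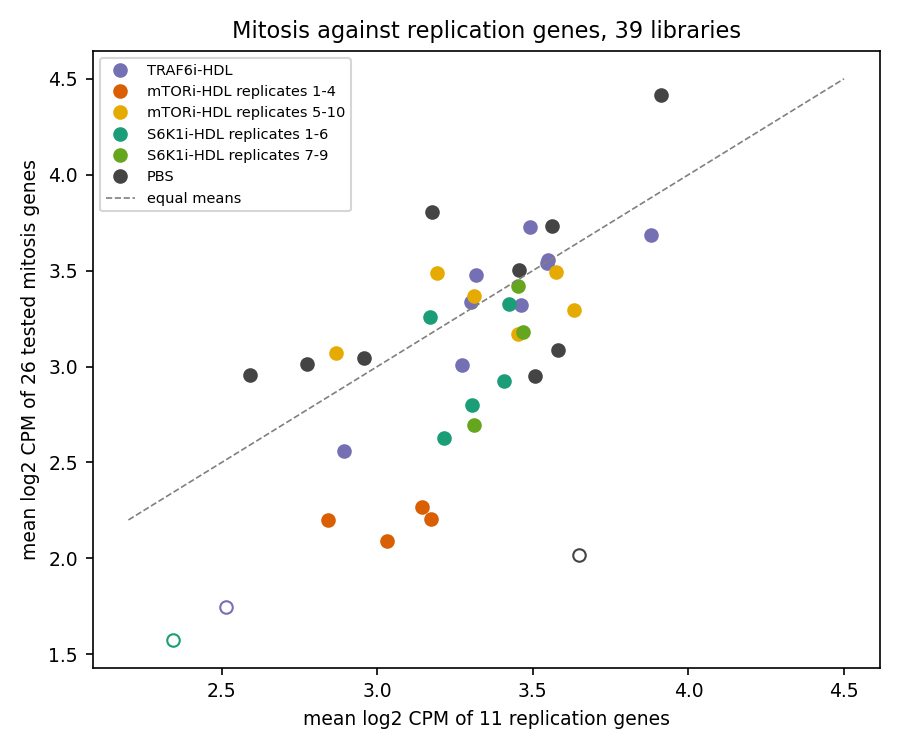
Mean log2 CPM of the 26 tested mitosis genes (vertical axis) against that of the 11 replication genes (horizontal axis), with 1 point per library and a dashed line of equal means. The libraries of mTORi-HDL replicates 1-4 share a narrow mitosis range, 2.09 to 2.27, at replication means of 2.84 to 3.17 that other groups also have; the open points are the 3 libraries under 200000 counts.

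In mTORi-HDL replicates 1-4 against PBS, 11 of the 37 tested genes were lower and 0 were higher at an adjusted p under 0.05 (edgeR's quasi-likelihood test with Benjamini-Hochberg adjustment over 10411 genes). Of all genes tested, 0.509% were lower by the same rule. All 11 were mitosis genes: Kif23, Ube2c, Mki67, Top2a, Bub1, Prc1, Cdk1, Kif11, Cenpe, Nuf2 and Ccna2. The 26 mitosis genes had a median log2 fold change of -1.57, with 26 of 26 below 0 and a range from -2.86 to -0.32. The 11 replication genes had a median of -0.61 with 8 of 11 below 0, and all tested genes a median of -0.01 with 51.5% below 0. The count of 11 fell to 4 without mTORi-HDL replicate 4 and to 7 without replicate 2 or without replicate 3. Kif23, Ube2c, Mki67 and Bub1 passed in each of 39 fits that left out 1 library and in each of 13 other alternatives. Among these fits, Top2a, Prc1 and Cdk1 lost the call only without mTORi-HDL replicate 4. The alternatives include an adjusted p under 0.2 and a log2 fold change of at least 1. Both only apply another cut to the main fit, so genes called there with fold changes of this size could not lose the call by them.

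Mki67 encodes Ki-67, which coats mitotic chromosomes and is the usual stain for dividing cells. Its level was 25.5, 46.4, 26.9 and 38.2 CPM in mTORi-HDL replicates 1 to 4, against a lowest, median and highest of 50.6, 83.3 and 230.1 CPM with PBS. No treated library of this set reached the lowest PBS library, and the log2 fold change was -1.55 ± 0.28 (SE, adjusted p = 0.00173). Its 42 to 164 counts per library in replicates 1-4 make it the most deeply counted of the 11.

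Kif23 encodes a kinesin of the central spindle that is needed for cytokinesis. It stood at 0.608, 2.56, 2.44 and 2.33 CPM in mTORi-HDL replicates 1 to 4, against 0, 9.36 and 14.7 CPM (lowest, median, highest) with PBS. The PBS library at 0 is the shallow replicate 9, and the log2 fold change was -2.31 ± 0.40 (adjusted p = 0.00107). Ube2c, the ubiquitin-conjugating enzyme that works with the anaphase-promoting complex, had 4.26, 3.83, 1.63 and 2.56 CPM in the same 4 libraries, against 0, 18.1 and 47.6 CPM with PBS. All 4 treated values lay below the PBS median, with a log2 fold change of -2.86 ± 0.49 (adjusted p = 0.00114).

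Top2a, the topoisomerase that untangles sister chromatids, had 12.8, 14.1, 12.2 and 6.53 CPM in mTORi-HDL replicates 1 to 4, against 0, 27.9 and 57.7 CPM (lowest, median, highest) with PBS. Its log2 fold change was -1.56 ± 0.32 (adjusted p = 0.00433), and every PBS library other than replicate 9 at 0 and replicate 3 at 12.0 CPM lay above the treated range. Prc1, which bundles microtubules of the central spindle, had 1.22, 2.56, 3.67 and 2.56 CPM, against 0, 7.82 and 23.7 CPM with PBS (log2 fold change -2.12 ± 0.46, adjusted p = 0.00727). Kif11, the motor that pushes spindle poles apart, had 6.08, 5.11, 3.67 and 3.50 CPM, against 3.56, 13.6 and 37.9 CPM with PBS. The Kif11 groups overlapped at the low end, and its fold change of -1.60 ± 0.39 (adjusted p = 0.0253) lost the call in 3 of the fits without 1 library (mTORi-HDL replicate 2, 3 or 4), with the replicate block and with only the 2 groups compared.

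Cenpe, a kinetochore motor, had 10.9, 4.69, 5.30 and 8.62 CPM (79 counts in all) in mTORi-HDL replicates 1 to 4, against 6.87, 18.9 and 51.4 CPM (lowest, median, highest) with PBS, a log2 fold change of -1.58 ± 0.40 (adjusted p = 0.0331). The Cenpe groups overlapped. Ccna2, the cyclin of S phase and G2, had 3.04, 4.26, 1.63 and 3.03 CPM in the same 4 libraries, against 0, 7.09 and 19.8 CPM with PBS (-1.70 ± 0.44, adjusted p = 0.0397), and the PBS library at 0 is replicate 9. Among fits without 1 library, the Cenpe call held in 34 of 39 and the Ccna2 call in 32 of 39. Here and in the other comparisons, many of the 39 fits leave out a library of neither group compared. All losses of these calls among the 39 came from leaving out a library of the groups compared. Both were lost without mTORi-HDL replicate 2, 3 or 4 and without PBS replicate 8, Cenpe also without PBS replicate 7, and Ccna2 also without mTORi-HDL replicate 1 or PBS replicate 5 or 10. Both were lost, too, with the replicate block and with only the 2 groups compared.

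Bub1, Cdk1 and Nuf2 rest on the fewest counts of the 11, and Kif23, Prc1, Ube2c and Ccna2 held 23 to 32 counts each over the 4 libraries. Bub1, a kinase of the spindle checkpoint, had 8 counts in all 4 libraries together, at 1.22, 0, 0.407 and 1.17 CPM, against 2.19, 4.67 and 25.3 CPM (lowest, median, highest) with PBS. The Bub1 groups did not overlap, and the log2 fold change was -2.81 ± 0.60 (adjusted p = 0.00722). Cdk1, the kinase that drives entry into mitosis, had 3 or 4 counts per library (15 in all), or 2.43, 1.28, 1.63 and 0.932 CPM, against 0, 7.74 and 15.4 CPM with PBS, a log2 fold change of -2.33 ± 0.51 (adjusted p = 0.00854). Nuf2, part of the NDC80 complex that ties kinetochores to microtubules, had 8 counts in all and a log2 fold change of -2.31 ± 0.59 (adjusted p = 0.0335). Its call held in 31 of 39 fits without 1 library and was lost without any one of mTORi-HDL replicates 1 to 4, without PBS replicate 2, 5, 6 or 10, with no low-count filter, with the replicate block and with only the 2 groups compared.

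**Figure D3:**
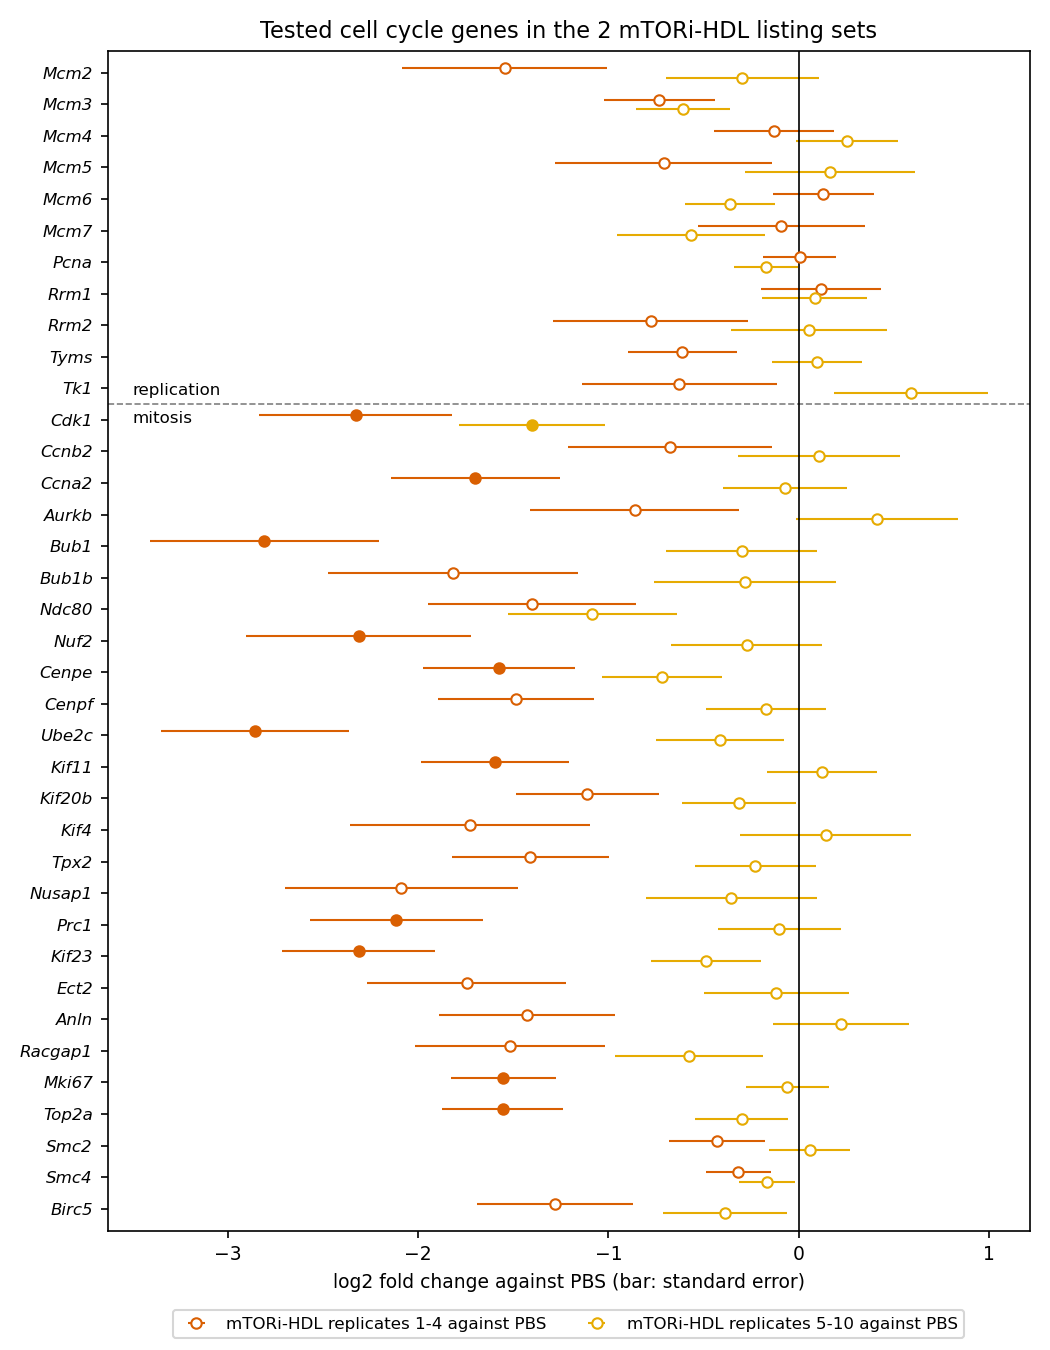
Log2 fold change against PBS of the 37 tested genes, with its standard error as a bar, in mTORi-HDL replicates 1-4 (upper mark of each row) and replicates 5-10 (lower mark); filled marks have an adjusted p under 0.05. The mitosis genes of replicates 1-4 run from -2.86 to -0.32, and the only filled mark of replicates 5-10 is Cdk1.

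By role within mitosis, the calls were spread over several steps, where 0.509% of all tested genes were lower. In replicates 1-4 against PBS, 2 of 3 tested genes of the cyclin and Cdk1 group were lower (median log2 fold change -1.70), 3 of 6 of the kinetochore and checkpoint group (median -1.70), 2 of 6 of the spindle and kinesin group (median -1.66), 1 of 4 of the cytokinesis group (median -1.63) and 2 of 5 of the chromosome structure and passenger group (median -1.28). The smallest differences within mitosis were those of the condensin ATPases Smc4 (-0.32 ± 0.17, adjusted p = 0.445) and Smc2 (-0.43 ± 0.25, adjusted p = 0.496). Condensins fold chromosomes and also act outside mitosis. Ccnb2, a cyclin B, had a value of -0.68 (adjusted p = 0.643) and Aurkb, the kinase of the chromosomal passenger complex, -0.86 (adjusted p = 0.542), and neither passed the test.

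None of the 11 replication genes passed in mTORi-HDL replicates 1-4 against PBS at an adjusted p under 0.05 by edgeR's quasi-likelihood test, and 3 of 11 were lower at an unadjusted p under 0.05, against 6.2% of all tested genes. Pcna had 108.9, 52.4, 58.7 and 74.8 CPM in replicates 1 to 4, against 59.8, 75.4 and 101 CPM (lowest, median, highest) with PBS. These ranges lay over each other, and the log2 fold change was 0.01 ± 0.19 (adjusted p = 0.996). Mcm3, an MCM subunit, had 6.69, 8.95, 10.2 and 8.62 CPM, against 5.11, 14.6 and 24.0 CPM with PBS, a value of -0.73 ± 0.29 (adjusted p = 0.26). Mcm2, another subunit, had 19 counts in all 4 libraries and a value of -1.55 ± 0.54 (adjusted p = 0.169), the lowest among the replication genes. The thymidylate synthase Tyms stood at -0.61 ± 0.29 (adjusted p = 0.363), the ribonucleotide reductase subunit Rrm2 at -0.78 (adjusted p = 0.556) and the thymidine kinase Tk1 at -0.63 (adjusted p = 0.656). Mcm6, Rrm1, Mcm7 and Mcm4 lay between -0.13 and 0.13.

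**Figure D4:**
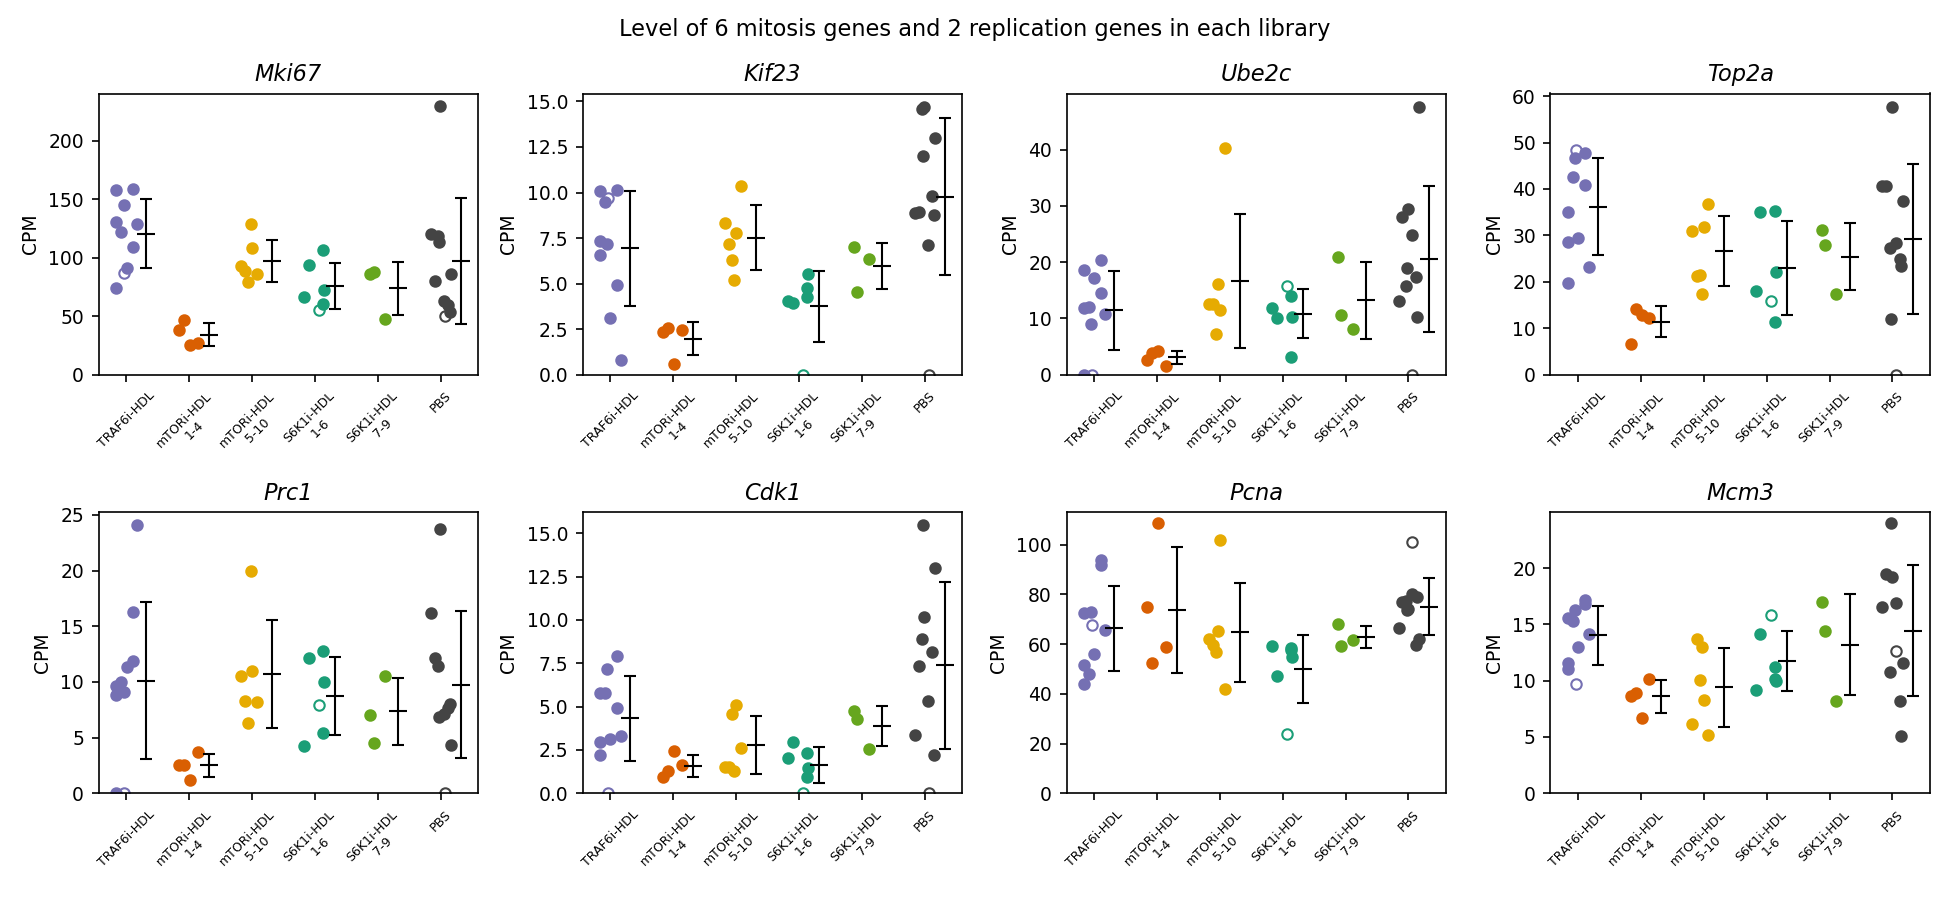
Level in CPM of 6 mitosis genes (Mki67, Kif23, Ube2c, Top2a, Prc1, Cdk1) and 2 replication genes (Pcna, Mcm3), with 1 point per library by group; bars are the mean and SD, and open points are the 3 libraries under 200000 counts. Mki67 lies between 25.5 and 46.4 CPM in mTORi-HDL replicates 1-4 and at 47.3 CPM or above in all other libraries, while Pcna spans 52.4 to 108.9 CPM in the same set and overlaps every other group.

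In mTORi-HDL replicates 5-10 against PBS, Cdk1 was the only gene of the 37 that passed, and it was lower, while 1.07% of all tested genes were lower. Cdk1 had 1.30, 2.07 and 5.10 CPM (lowest, median, highest) in replicates 5-10, against 0, 7.74 and 15.4 CPM with PBS. The groups overlapped, and the log2 fold change was -1.40 ± 0.38 (edgeR's quasi-likelihood test, adjusted p = 0.0439). The call was lost in 11 of 39 fits without 1 library, namely without mTORi-HDL replicate 5, 6, 8 or 9, PBS replicate 2, 3, 4, 6 or 7, or S6K1i-HDL replicate 2 or 4, which gave 0 calls each. The next genes by p were Mcm3 (-0.61, adjusted p = 0.188), Ndc80, a kinetochore subunit (-1.09, adjusted p = 0.192), Cenpe (-0.72, adjusted p = 0.226), Kif23 (-0.49, adjusted p = 0.401) and Mcm6 (-0.36, adjusted p = 0.455). Mki67 had 79.5, 90.6 and 129 CPM and a value of -0.06 ± 0.22 (adjusted p = 0.93). The mitosis genes had a median log2 fold change of -0.25 with 20 of 26 below 0, and the replication genes 0.05 with 5 of 11 below 0, where 48.6% of all tested genes lay below 0. The replication median turned to -0.17 with the Rn45s share as a covariate, Rn45s being ribosomal precursor RNA, and to -0.18 with the number of detected genes as one, and the mitosis median was then -0.36 and -0.39.

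Set directly against each other, mTORi-HDL replicates 1-4 were lower than replicates 5-10 in 6 of the 37 genes, all of mitosis, and higher in 0. Of all tested genes 0.106%, or 11 genes, were lower by this rule, and these 6 are among the 11. Mki67 had a log2 fold change of -1.49 ± 0.29 (edgeR's quasi-likelihood test, adjusted p = 0.00836) and Ube2c one of -2.45 ± 0.50 (adjusted p = 0.0162). Kif23 differed by -1.82 ± 0.41 (adjusted p = 0.0268), Kif11 by -1.72 ± 0.40 (adjusted p = 0.0313), Prc1 by -2.01 ± 0.47 (adjusted p = 0.0313) and Bub1 by -2.51 ± 0.62 (adjusted p = 0.0488). The mitosis median was -1.40 with 26 of 26 genes below 0 (range -2.51 to -0.15), the replication median -0.38 with 7 of 11 below 0, and that of all tested genes -0.02 with 53.2% below 0. With 4 libraries in the smaller set, the calls depend on single libraries. They numbered 0 without mTORi-HDL replicate 1 or without replicate 3, 1 without replicate 4, 2 without replicate 2 and 3 without replicate 8. The Bub1 call held in 13 of 39 fits without 1 library. With the replicate number as a block, 2 calls were left.

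The values of the 2 sets show how far they lay apart. Mki67 stood at 25.5 to 46.4 CPM in replicates 1-4 and at 79.5 to 129 CPM in replicates 5-10. Kif23 stood at 0.608 to 2.56 CPM in replicates 1-4 and 5.20 to 10.4 CPM in replicates 5-10, and Ube2c at 1.63 to 4.26 CPM and 7.18 to 40.2 CPM. For 10 of 26 tested mitosis genes, each library of replicates 1-4 lay below each library of replicates 5-10, against 1.06% of all tested genes, and the same held for 0 of 11 replication genes. These 10 were Bub1, Cenpf, Ube2c, Kif11, Prc1, Kif23, Ect2, Anln, Mki67 and Top2a. Bub1, Ect2 and Mki67 also lay below every PBS library in replicates 1-4, as did 0.221% of all tested genes. Cdk1, the gene called in both sets against PBS, was not among the 10. Its level was 0.932 to 2.43 CPM in replicates 1-4 and 1.30 to 5.10 CPM in replicates 5-10, and the direct difference was -0.93 ± 0.54 (adjusted p = 0.744). Pcna differed by 0.18 ± 0.20 (adjusted p = 0.945). The 11 replication genes ranged from -1.25 to 0.49. Of these, 0 passed by edgeR's quasi-likelihood test, and 3 were lower at an unadjusted p under 0.05, against 3.68% of all tested genes.

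Plk1, the polo-like kinase of mitotic entry and spindle assembly, lay below the filter in the test over 10411 genes, and was singled out after its values were seen. It had 1 count in all of mTORi-HDL replicates 1-4 together and 17 in replicates 5-10, at 0 to 0.608 CPM and 0.309 to 1.30 CPM. The other groups held a lowest, median and highest of 0, 2.98 and 5.79 CPM with TRAF6i-HDL, 0, 2.85 and 6.19 CPM with S6K1i-HDL and 0, 2.66 and 12.6 CPM with PBS. Fitted with no low-count filter over 18317 genes, Plk1 was lower in all mTORi-HDL libraries than with PBS (log2 fold change -2.24 ± 0.53, edgeR's quasi-likelihood test, adjusted p = 0.0194, where 0.775% of genes passed in either direction). It was also lower with mTORi-HDL than with S6K1i-HDL (-2.49 ± 0.49, adjusted p = 0.000633, where 3.96% of genes passed), and higher with TRAF6i-HDL than with mTORi-HDL (2.34 ± 0.51, adjusted p = 0.00611, where 1.63% passed). Plk1 shares exonic bases with a gene on the opposite strand in GENCODE M21, and whether counting used strand is not given in the sources used here. Ttk, a checkpoint kinase also below the filter, had 0.233 to 0.852 CPM in replicates 1-4 and 1.30 to 4.62 CPM in replicates 5-10, and did not pass in that fit (-2.43 ± 0.75, adjusted p = 0.225, where 0.147% of genes passed).

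Promoters of 5 called mitosis genes are shown, picked from those that carry a CHR element, which few replication genes have. The element is not particular to called genes: Ccnb2 and Smc2, among others not called, also carry it. Not every called gene holds it: the windows of Cenpe and Nuf2 have no CHR letters, and Ccna2 has no entry in the promoter table. The sequences are RefSeq promoters (GRCm38.p6), 180 bases before to 20 from the annotated start, on the strand of the gene. Capitals mark the motifs, which were searched on both strands. A CHR element was read as TTTGAA and also in the form TTCGAA. A box of the kind bound by NF-Y was read by its letters CCAAT. An E2F site was read as TTTCGCGC, and the same label was given to the spelling TTTGGCGC. On the other strand these motifs appear as their reverse complements. Mki67, Kif23, Kif11, Prc1 and Cdk1 are called mitosis genes, and Pcna and Mcm5 are replication genes. Their positions are chr7:135716360-135716559 (minus strand) for Mki67, chr9:61946780-61946979 (minus) for Kif23, chr19:37376202-37376401 (plus) for Kif11, chr7:80294271-80294470 (plus) for Prc1, chr10:69352893-69353092 (minus) for Cdk1, chr2:132253161-132253360 (minus) for Pcna and chr8:75109329-75109528 (plus) for Mcm5.
Mki67: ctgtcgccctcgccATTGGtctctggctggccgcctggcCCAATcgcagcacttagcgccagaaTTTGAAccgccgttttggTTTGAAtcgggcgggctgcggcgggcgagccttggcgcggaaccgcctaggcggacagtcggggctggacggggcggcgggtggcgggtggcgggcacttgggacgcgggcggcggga
Kif23: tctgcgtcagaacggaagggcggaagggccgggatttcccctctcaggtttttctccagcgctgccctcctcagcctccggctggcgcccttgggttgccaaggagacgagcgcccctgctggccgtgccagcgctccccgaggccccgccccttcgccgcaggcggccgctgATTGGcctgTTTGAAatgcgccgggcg
Kif11: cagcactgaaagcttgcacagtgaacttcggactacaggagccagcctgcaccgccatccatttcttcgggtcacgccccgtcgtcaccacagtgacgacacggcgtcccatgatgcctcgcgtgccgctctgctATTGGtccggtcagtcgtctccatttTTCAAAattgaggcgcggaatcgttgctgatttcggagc
Prc1: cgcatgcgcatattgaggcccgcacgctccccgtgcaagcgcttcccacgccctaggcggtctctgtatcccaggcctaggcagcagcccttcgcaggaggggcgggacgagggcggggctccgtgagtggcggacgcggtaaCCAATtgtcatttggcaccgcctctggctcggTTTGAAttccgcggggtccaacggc
Cdk1: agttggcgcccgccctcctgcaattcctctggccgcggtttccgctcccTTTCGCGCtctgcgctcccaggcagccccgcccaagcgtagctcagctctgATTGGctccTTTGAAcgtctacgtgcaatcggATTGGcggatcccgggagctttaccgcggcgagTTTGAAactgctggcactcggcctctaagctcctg
Pcna: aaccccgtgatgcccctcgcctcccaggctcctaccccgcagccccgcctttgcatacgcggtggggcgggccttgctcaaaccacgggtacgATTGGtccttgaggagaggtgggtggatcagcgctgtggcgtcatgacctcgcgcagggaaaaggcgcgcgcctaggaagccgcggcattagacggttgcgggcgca
Mcm5: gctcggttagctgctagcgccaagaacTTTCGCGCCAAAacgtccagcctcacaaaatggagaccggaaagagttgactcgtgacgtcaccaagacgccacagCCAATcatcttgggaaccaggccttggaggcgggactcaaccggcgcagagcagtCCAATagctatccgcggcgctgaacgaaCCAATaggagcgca

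The Mki67 stretch holds 2 CHR elements and 2 CCAAT boxes, and the Kif23, Kif11 and Prc1 stretches each hold a CHR element downstream of a CCAAT box near the start. The Cdk1 stretch alone of these holds CHR elements, CCAAT boxes and an E2F site. The Pcna stretch holds a CCAAT box and none of the other letters searched, and in Mcm5 the 2 E2F spellings overlap in 1 site beside 3 CCAAT boxes. In the full windows of 300 bases (250 before to 50 from the start), 37 of the 43 genes had a promoter. A CHR element lay in 22 of 27 mitosis promoters (81.5%), in 2 of 10 replication promoters (20%, Mcm2 and Mcm7) and in 16.0% of the promoters of 7935 tested genes. A CCAAT box lay in 21 of 27 mitosis promoters (77.8%), 8 of 10 replication promoters (80%) and 42.3% of tested genes. An E2F site lay in 1 of 27 mitosis promoters (3.70%, Cdk1), in 4 of 10 replication promoters (40%: Mcm3, Mcm5, Mcm6 and Mcm7) and in 1.75% of tested genes. A match of letters is a description and no evidence of binding in these cells.

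**Figure D5:**
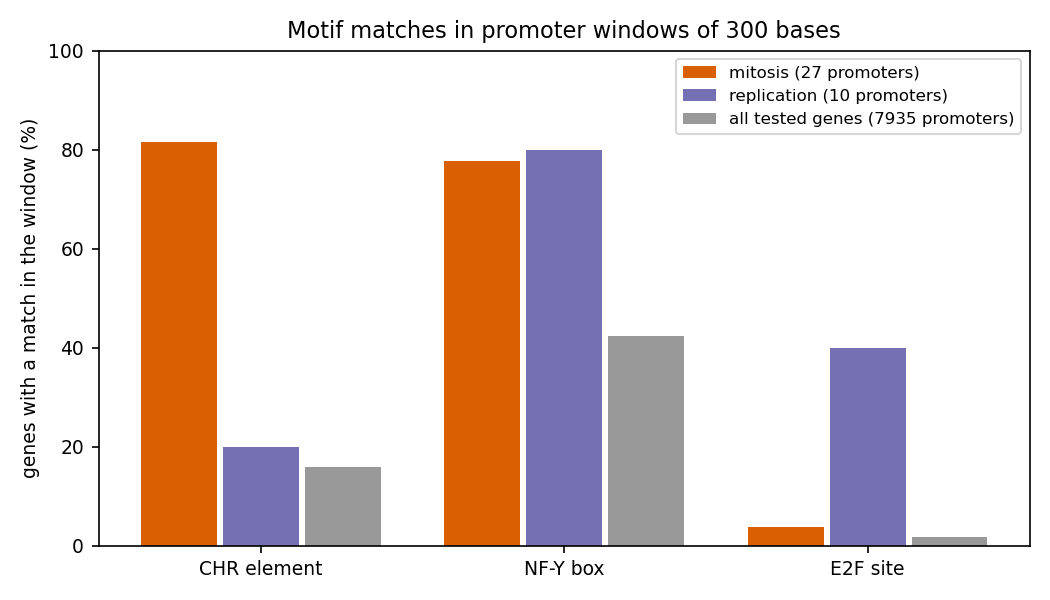
Share of promoter windows of 300 bases, in percent, that hold a CHR element, a CCAAT box (the box bound by NF-Y) or an E2F site, for 27 mitosis promoters, 10 replication promoters and the promoters of 7935 tested genes. The CHR share is 81.5% for mitosis and 20% for replication, and the E2F share is 3.70% for mitosis and 40% for replication.

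Other genes of the cycle were read from 6 lists that hold none of the 43, with 92 of 130 genes tested. In mTORi-HDL replicates 1-4 against PBS, 8 of the 92 were lower and 0 higher, against 0.509% of all tested genes lower. All 8 belong to the list of spindle, kinetochore and chromosome segregation genes, where 30 of 43 were tested (median log2 fold change -0.97, 29 of 30 below 0). The 5 of smallest p were Aspm, a spindle-pole protein (-2.04 ± 0.38, adjusted p = 0.0019), Casc5, the kinetochore scaffold KNL1 (-1.94 ± 0.39, adjusted p = 0.00433), Depdc1a (-2.23 ± 0.56, adjusted p = 0.0294), Hmmr, a spindle protein and hyaluronan receptor (-1.97 ± 0.49, adjusted p = 0.0306), and Dlgap5, which stabilises kinetochore fibres (-1.94 ± 0.49, adjusted p = 0.0317). Of 7 tested genes of origin licensing and 19 of the replication fork, 0 passed by edgeR's quasi-likelihood test, with medians of -0.22 and -0.38. The medians were -0.10 for G1 cyclins and their kinases, -0.16 for cell cycle transcription factors and -0.04 for cell cycle inhibitors.

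No regulator passed in the same comparison: of 15 tested transcription factors of the cycle, 0 passed by edgeR's quasi-likelihood test and 2 were lower at an unadjusted p under 0.05, against 6.2% of all tested genes. These were E2f8, a repressor of E2F targets, with a log2 fold change of -1.64 ± 0.53 (adjusted p = 0.13), and Foxm1, which activates mitosis genes, with -1.42 ± 0.46 (adjusted p = 0.127), about the size of the mitosis median. E2f1 stood at -0.13 (adjusted p = 0.914), the inhibitor Cdkn1a (p21) at 0.22 (adjusted p = 0.751), cyclin D1 (Ccnd1) at 0.17 (adjusted p = 0.758) and Myc at 0.40 (adjusted p = 0.52). In replicates 5-10 against PBS, Ccnd1 was higher (0.64 ± 0.16, adjusted p = 0.0247, where 0.615% of all tested genes were higher). Between the 2 mTORi-HDL sets, 0 of the 92 genes passed by edgeR's quasi-likelihood test, and 21 were lower at an unadjusted p under 0.05, against 3.68% of all tested genes.

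Markers of other cell types also differed between the mTORi-HDL sets. The summed CPM of 8 smooth muscle markers, 6 of them tested, was 226 to 274 in replicates 1-4 and 339 to 1099 in replicates 5-10, without overlap, and 88.0 to 771 with PBS. No smooth muscle marker passed between the sets by edgeR's quasi-likelihood test. At an unadjusted p under 0.05, 4 of the 6 were lower, against 3.68% of all tested genes. All 6 lay below 0 (median log2 fold change -1.28), as did 53.2% of all tested genes. The 12 B and plasma cell markers in the files summed to 159 to 305 CPM in replicates 1-4, 144 to 156 CPM in replicates 5-10 and 86.8 to 190 CPM with PBS. Only 3 of them were tested: Sdc1 and Xbp1, at averages of 6.23 and 6.03 log2 CPM over all libraries, and Igj at 2.94. The others lay below the filter. Blk was at 0 in every library of replicates 1-4, while Pax5, Mzb1 and Tnfrsf17 were at 0 in every library of replicates 5-10, and Sdc1 was higher in replicates 1-4 (0.94 ± 0.23, adjusted p = 0.0488), as were 0.25% of all tested genes. The 15 macrophage markers, among them Cd68, by which the areas were chosen, summed to 13548 to 19373 CPM in replicates 1-4, 7372 to 18539 CPM in replicates 5-10 and 5308 to 27107 CPM with PBS, and 0 passed between the sets, with 5 higher and 0 lower at an unadjusted p under 0.05, where 4.01% of all tested genes were higher. Rn45s took 20.6% to 27.7% of counts in replicates 1-4, 6.71% to 32.5% in replicates 5-10 and 2.28% to 30.0% with PBS. With the Rn45s share as a covariate, 17 of the 37 genes passed in replicates 1-4 against PBS and 10 between the sets. The share of all tested genes under that covariate is not given here, so these counts cannot be set beside it. Set against PBS, replicates 1-4 had higher Itgam, a macrophage integrin (0.99, adjusted p = 0.00173), and higher Sdc1 (1.16, adjusted p = 0.0019), as did 0.567% of all tested genes. The T and NK cell marker Cd8a had a value of -1.91 (adjusted p = 0.265). The part of these markers in the mitosis difference was not tested.

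Over all 10 mTORi-HDL libraries against PBS, 1 of the 37 genes passed, Cdk1, and it was lower, as were 1.02% of all tested genes. Cdk1 had 0.932, 1.59 and 5.10 CPM (lowest, median, highest) with mTORi-HDL, against 0, 7.74 and 15.4 CPM with PBS. All 10 mTORi-HDL libraries lay under the PBS median, and the log2 fold change was -1.67 ± 0.35 (edgeR's quasi-likelihood test, adjusted p = 0.00675). The genes next by p were Cenpe (-0.99, adjusted p = 0.0568), Kif23 (-0.95, adjusted p = 0.0781), Ndc80 (-1.19, adjusted p = 0.0855), Mcm3 (-0.65, adjusted p = 0.0882) and Top2a (-0.66, adjusted p = 0.145). The mitosis median was -0.58 with 25 of 26 genes below 0, the replication median -0.14 with 8 of 11 below 0, and the median of all tested genes 0.01 with 49.0% below 0. The count of calls was 3 when mTORi-HDL replicate 5 was left out, and 2 when the library left out was mTORi-HDL replicate 8, PBS replicate 5, S6K1i-HDL replicate 1, TRAF6i-HDL replicate 6 or TRAF6i-HDL replicate 8. The Cdk1 call held in all 39 fits without 1 library and was lost with the Rn45s share as a covariate, where Cenpe passed.

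Markers of several cell types also differed between all mTORi-HDL libraries and PBS. Of the 15 macrophage markers, Itgam was higher (0.71, edgeR's quasi-likelihood test, adjusted p = 0.00718), as were 0.624% of all tested genes, and Aif1 was lower (-1.01, adjusted p = 0.00931). The 10 endothelial markers all lay above 0 (median log2 fold change 0.46) and summed to 563 to 1038 CPM with mTORi-HDL, against 430 to 809 CPM with PBS, and Flt1 was the 1 of them called (0.74, adjusted p = 0.0109). Of 11 T and NK cell markers 2 were tested, and neither Cd3e (-1.01, adjusted p = 0.221) nor Cd8a (-1.42, adjusted p = 0.131) passed. The 10 of these markers in the files summed to 6.56 to 45.4 CPM with mTORi-HDL and 0 to 139 CPM with PBS, where Ncr1 was at 0 in every library. Fabp4, the 1 tested of 7 adipocyte markers, was lower (-1.21, adjusted p = 0.0497), while Adipoq, Plin1 and Lep were at 0 in every library of both groups. The part of these markers in the mitosis values was not tested.

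With S6K1i-HDL against PBS, 3 of the 37 genes were lower and 0 higher, against 6.47% of all tested genes lower, so that these genes were called about as often as others. Over all genes S6K1i-HDL gave 1242 calls in either direction and mTORi-HDL 171. Cdk1 had 0, 2.32 and 4.73 CPM (lowest, median, highest) with S6K1i-HDL, against 0, 7.74 and 15.4 CPM with PBS, a log2 fold change of -1.46 ± 0.36 (edgeR's quasi-likelihood test, adjusted p = 0.00562). Each group has a shallow library at 0, and the groups overlapped below the PBS median. Kif23 had 0, 4.56 and 7.00 CPM, against 0, 9.36 and 14.7 CPM with PBS (-1.06 ± 0.31, adjusted p = 0.0207), and Smc4 had 59.7, 86.8 and 134 CPM, against 89.0, 116 and 164 CPM with PBS (-0.49 ± 0.14, adjusted p = 0.0139). Ndc80 (-1.12, adjusted p = 0.0554), Ccnb2 (-1.19, adjusted p = 0.0561) and Cenpe (-0.73, adjusted p = 0.0934) came next. The mitosis median was -0.55 with 24 of 26 below 0, and the replication median -0.10 with 7 of 11 below 0, where 49.7% of all tested genes lay below 0. The count was 5 without TRAF6i-HDL replicate 8, a library of neither group that enters through the shared filter, scaling and spread. Cdk1 and Kif23 lost their calls with the Rn45s share as a covariate, where Cenpe passed and the mitosis median was -0.86. Smc4 lost its call with the count of detected genes as covariate, where that median was -0.83.

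Of the 92 other cycle genes tested, 7 were lower with S6K1i-HDL than with PBS by edgeR's quasi-likelihood test, where 6.47% of all tested genes were. They were thus called lower about as often as other genes. The lower ones were Ncapg, a condensin subunit (-1.45, adjusted p = 0.00749), Sgol1, which protects centromeric cohesion (-1.57, adjusted p = 0.0133), Cks1b, a partner of cyclin-dependent kinases (-1.06, adjusted p = 0.0135), Depdc1a (-1.37, adjusted p = 0.0254), Ncapg2 (-0.62, adjusted p = 0.0382), the antiproliferative Btg1 (-0.75, adjusted p = 0.00279) and the inhibitor Cdkn1b, or p27 (-0.64, adjusted p = 0.0306). Cyclin D3 (Ccnd3, 1.20, adjusted p = 0.00567) and its kinase Cdk6 (0.85, adjusted p = 0.00869) were higher, as were 5.46% of all tested genes. With the Rn45s share as a covariate none of these 9 passed, and the fold change of Cdkn1b turned to 0.075. Without 1 library, Ncapg2 held its call in 27 of 39 fits and Cdkn1b in 31 of 39. Rn45s took 14.5% to 47.5% of counts with S6K1i-HDL and 2.28% to 30.0% with PBS. Of the 15 macrophage markers, Ctss (-1.34, adjusted p = 0.00322), Cd14 (-0.75, adjusted p = 0.0132) and Lgals3 (-0.61, adjusted p = 0.0363) were lower, as were 6.47% of all tested genes. The 15 summed to 9630 to 14783 CPM with S6K1i-HDL, against 5308 to 27107 CPM with PBS. The smooth muscle marker Smtn was higher (1.47, adjusted p = 0.00208), and the 8 of that list summed to 302 to 865 CPM with S6K1i-HDL and 88.0 to 771 CPM with PBS. Fabp4 (-1.57, adjusted p = 0.00406) and the fibroblast marker Dpt (-0.65, adjusted p = 0.0147) were lower. The part of these markers and of Rn45s in the cycle genes was not tested.

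The S6K1i-HDL sets are listed apart in the same way, and no gene of the 37 differed between them by the test. The mitosis sum was 295 to 464 CPM in replicates 1-6 and 269 to 428 CPM in replicates 7-9, and these ranges overlapped. Between the S6K1i-HDL sets 0 of the 37 genes passed by edgeR's quasi-likelihood test, 1 (Tk1) passed at an unadjusted p under 0.05, and DESeq2 and limma-voom also gave 0. Of all tested genes 0.0192% passed and 5.77% had an unadjusted p under 0.05. The mitosis median was -0.15 with 17 of 26 below 0, where 50.7% of all tested genes lay below 0, and it turned to 0.23 with 8 of 26 below 0 with the replicate block. Tk1 (1.15, adjusted p = 0.835), Cdk1 (-0.96, adjusted p = 0.835), Ccna2 (-0.79, adjusted p = 0.835), Rrm2 (-0.76, adjusted p = 0.869), Kif23 (-0.45, adjusted p = 0.904) and Racgap1 (-0.57, adjusted p = 0.904) were the genes of smallest p. Whether the set difference of mTORi-HDL exceeds that of S6K1i-HDL was not tested.

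Against PBS, S6K1i-HDL replicates 1-6 were lower in 3 genes, Cdk1 (-1.93 ± 0.42, adjusted p = 0.00181), Kif23 (-1.26 ± 0.32, adjusted p = 0.00579) and Ube2c (-1.11 ± 0.37, adjusted p = 0.035), by edgeR's quasi-likelihood test, where 7.91% of all tested genes were lower. The next were Smc4 (-0.41, adjusted p = 0.0612), Bub1 (-1.15, adjusted p = 0.0682) and Ccnb2 (-1.30, adjusted p = 0.07). The count was 5 without S6K1i-HDL replicate 2. The 3 libraries of replicates 7-9 against PBS gave 0 calls by edgeR, DESeq2 and limma-voom and 6 at an unadjusted p under 0.05, against 0.00961% and 10.5% of all tested genes. The mitosis medians of the 2 sets against PBS were -0.58 for replicates 1-6 and -0.54 for replicates 7-9. For replicates 1-6 it was -1.11 with the Rn45s share as a covariate, where Cdk1, Kif23 and Ube2c lost their calls and Cenpe gained one, and -0.36 with the replicate block. Smc4 (-0.62, adjusted p = 0.205), Ndc80 (-1.43, adjusted p = 0.333), Kif23 (-0.81, adjusted p = 0.407), Cenpe (-0.87, adjusted p = 0.415), Cdk1 (-0.97, adjusted p = 0.429) and Tpx2, a spindle assembly factor (-0.83, adjusted p = 0.466), had the smallest p.

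mTORi-HDL replicates 1-4 and S6K1i-HDL replicates 1-6 are listed next to each other, so they were also compared, in a contrast added after the data were seen. In mTORi-HDL replicates 1-4, 3 of the 37 genes were lower and 0 higher, where 0.73% of all tested genes were lower. Kif11 differed by -1.81 ± 0.40 (edgeR's quasi-likelihood test, adjusted p = 0.00484), Mki67 by -1.18 ± 0.29 (adjusted p = 0.0132) and Prc1 by -1.75 ± 0.48 (adjusted p = 0.0281). The mitosis median was -1.06 with 24 of 26 below 0 and the replication median -0.10 with 7 of 11 below 0, where 51.1% of all tested genes lay below 0. Aspm (-1.79, adjusted p = 0.00416) and Dlgap5 (-1.82, adjusted p = 0.0337) were lower and Btg1 higher (1.32, adjusted p = 8.27e-05, where 2.19% of all tested genes were higher). The count of 3 became 1 without mTORi-HDL replicate 1, 5 without mTORi-HDL replicate 5, PBS replicate 9 or S6K1i-HDL replicate 5, and 6 without TRAF6i-HDL replicate 8.

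With TRAF6i-HDL against PBS, 0 of the 37 genes passed by edgeR's quasi-likelihood test, DESeq2 or limma-voom, and 0 had an unadjusted p under 0.05, while 0.0192% and 11.1% of all tested genes did. Mki67 had 74.3, 125 and 159 CPM (lowest, median, highest) with TRAF6i-HDL, against 50.6, 83.3 and 230.1 CPM with PBS, a value of 0.27 ± 0.26 (adjusted p = 0.749). These ranges overlapped widely, and so did those of Pcna, at 44.0, 66.6 and 93.8 CPM against 59.8, 75.4 and 101 CPM with PBS (-0.13 ± 0.15, adjusted p = 0.809). Kif23 had the smallest p (-0.62, adjusted p = 0.457), followed by Cenpe (-0.54, adjusted p = 0.508), Ube2c (-0.72, adjusted p = 0.526), Cdk1 (-0.59, adjusted p = 0.546), Birc5, or survivin, of the chromosomal passenger complex (-0.53, adjusted p = 0.55), and Rrm2 (0.56, adjusted p = 0.624). The medians were -0.08 for mitosis and -0.03 for replication. Both changed with the setting, to 0.02 and 0.04 with the replicate block and, for mitosis, to -0.21 with the Rn45s share as a covariate. The 3 drug groups share the PBS libraries, so their values against PBS are not independent.

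Between drug groups, Racgap1, a partner of Kif23 in the centralspindlin complex of cytokinesis, was the only gene of the 37 that passed. It was higher with TRAF6i-HDL, at 0, 6.53 and 13.3 CPM (lowest, median, highest), than with mTORi-HDL, at 0.426, 3.46 and 6.08 CPM. The TRAF6i-HDL library at 0 is the shallow replicate 7, the groups overlapped, and the log2 fold change was 1.23 ± 0.34 (edgeR's quasi-likelihood test, adjusted p = 0.0338, where 1.56% of all tested genes were higher). The call was lost when TRAF6i-HDL replicate 1, 2, 6 or 10 or mTORi-HDL replicate 3, 4 or 9 was left out. When S6K1i-HDL replicate 1 or mTORi-HDL replicate 5, 7 or 10 was left out, 2 genes passed. Mcm3 (0.67, adjusted p = 0.0671), Top2a (0.78, adjusted p = 0.0709), Cdk1 (1.08, adjusted p = 0.0827), Mki67 (0.75, adjusted p = 0.0999) and Nuf2 (0.97, adjusted p = 0.161) came next, and the mitosis median was 0.44, or 0.70 with limma-voom. Of the other cycle genes, E2f8 (1.46, adjusted p = 0.0155), Lin9, a subunit of the DREAM and MYB-MuvB complexes (0.91, adjusted p = 0.00957), the Cdk1-inhibiting kinase Wee1 (0.87, adjusted p = 0.0299) and Ncapg2 (0.72, adjusted p = 0.0272) were higher with TRAF6i-HDL. Ccnd1 (-0.52, adjusted p = 0.0363) and Ccnd2 (-0.65, adjusted p = 0.0368), both D-type cyclins, were lower with TRAF6i-HDL than with mTORi-HDL, as were 1.36% of all tested genes.

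With TRAF6i-HDL against S6K1i-HDL, 0 of the 37 genes passed by edgeR's quasi-likelihood test, 10 were higher and 1 lower at an unadjusted p under 0.05, and limma-voom gave 5 calls and DESeq2 0. Of all tested genes 1.59% passed and 15.8% had an unadjusted p under 0.05. Racgap1 (1.17, adjusted p = 0.0649), Smc4 (0.40, adjusted p = 0.107), Ccnb2 (1.13, adjusted p = 0.146), Nuf2 (0.99, adjusted p = 0.182), Mki67 (0.67, adjusted p = 0.188) and Cdk1 (0.87, adjusted p = 0.199) had the smallest p, and 1 gene passed without S6K1i-HDL replicate 7. Ncapg2 (0.73, adjusted p = 0.0484) and Btg1 (0.65, adjusted p = 0.03) were higher and Ccnd2 lower (-0.90, adjusted p = 0.00958). The Ncapg2 call held in 13 of 39 fits without 1 library.

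With mTORi-HDL against S6K1i-HDL, 0 of the 37 genes passed by edgeR's quasi-likelihood test, 2 were higher and 1 lower at an unadjusted p under 0.05, and limma-voom gave 2 calls and DESeq2 0. Of all tested genes 6.18% passed and 20.8% had an unadjusted p under 0.05. Ccnb2 (1.05, adjusted p = 0.0981), Tyms (-0.53, adjusted p = 0.118), Smc4 (0.26, adjusted p = 0.237), Mcm2 (-0.67, adjusted p = 0.281), Mcm3 (-0.37, adjusted p = 0.306) and Pcna (0.26, adjusted p = 0.32) had the smallest p. The mitosis median was -0.07 and turned to 0.04 with the Rn45s share and 0.01 with the count of detected genes as covariate, and 1 gene passed without S6K1i-HDL replicate 1. Sgol1 (1.26, adjusted p = 0.0495) and Btg1 (1.02, adjusted p = 2.69e-05) were higher with mTORi-HDL and E2f8 was lower (-1.21, adjusted p = 0.0274). The Sgol1 call held in 21 of 39 fits without 1 library.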

How the data were processed

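RNA was read in 39 libraries of laser-captured, CD68-rich plaque. The deposited values are whole-number counts of reads per gene symbol, 24062 symbols in each file, and per the submitters' processing notes the authors aligned reads with TopHat2 2.1.0 and Bowtie2 2.2.8 and counted them with HTSeq 0.6.1. The notes name a human build, hg19, which cannot be behind mouse symbols, so the build stands as unknown, and the annotation and the use of strand are not given in the sources used here. Lines that name no gene were left out. Of the 43 genes, 11 share exonic bases with another gene in GENCODE M21 and 5 (Pcna, Tyms, Ccnb1, Ccnb2, Kif4) have a named pseudogene, so their counts may be split or shared.

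Counts were filtered with filterByExpr, scaled by TMM and tested with edgeR 4.0.16 (robust quasi-likelihood, R 4.3.3) over 10411 genes, with Benjamini-Hochberg adjustment over all of them and a threshold of 0.05. One fit used the 4 groups and another the 6 groups made by the listing sets. CPM values divide counts by the TMM-scaled library size; log2 CPM adds a prior count of 2. A fold change carries its standard error, and means are given with SD. The fit was tested on simulated data. DESeq2 1.42.0 and limma-voom (limma 3.58.1), other scalings, filters and covariates, and fits without each library were alternatives. No numbering in the labels pairs libraries: the correlation of same-numbered libraries ran between -0.208 and 0.287.

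The genes, the gene lists and the comparisons were chosen with earlier results of these data known. Genes named are those past the threshold, or the 6 of smallest p where fewer than 4 passed, up to 5 per pathway list, and Mki67, Pcna, Top2a, Foxm1, E2f1, Cdkn1a, Ccnd1 and Myc. Marker lists for other cell types were T and NK cells, neutrophils, endothelium, fibroblasts, adipocytes, cardiac muscle and erythroid cells besides those in the results; their sums overlapped between the mTORi-HDL sets. Every depth limit covers counting error only.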

Additional observations from a re-analysis of the deposited data

Results flagged for a closer look

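The differences of 6 genes between the mTORi-HDL sets passed a test of the difference itself, that of replicates 1-4 against replicates 5-10 in edgeR's quasi-likelihood fit. The log2 fold changes were -1.49 for Mki67, -2.45 for Ube2c, -1.82 for Kif23, -1.72 for Kif11, -2.01 for Prc1 and -2.51 for Bub1.

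Single libraries stood apart from their group by the gap to their nearest neighbour. PBS replicate 8 had the highest mitosis sum of its group, 962 CPM, and the highest Mki67, 230.1 CPM. Without it, 9 genes instead of 11 passed in mTORi-HDL replicates 1-4 against PBS, and 7 instead of 6 between the mTORi-HDL sets. mTORi-HDL replicate 5 had the highest Ube2c of its group and of its set, 40.2 CPM. mTORi-HDL replicate 8 had the highest Cenpe of its group, 26.01 CPM, and the highest Prc1 of its group and of its set, 19.9 CPM. Kif23 in mTORi-HDL replicate 1, at 0.608 CPM, lay below the other libraries of its set.

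The other such values belong to 2 libraries under 200000 counts. PBS replicate 9 had the highest Bub1 of its group, 25.3 CPM, and the highest Kif11, 37.9 CPM, with Kif23 at 0. S6K1i-HDL replicate 1 had the lowest mean log2 CPM of its group over the replication genes, 2.34, also within replicates 1-6, and over the mitosis genes, 1.58, with Kif23 at 0. In all, 16 of 119 combinations of a measure with a set of libraries held such a value. The sets overlap and the measures share libraries, so a chance rate of 1 in 20 cannot be set beside this count.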

How the results depend on the processing

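Counts of called genes moved with the choice of test. In mTORi-HDL against PBS (1 call) they were 3 with DESeq2's Wald test, 5 with limma-voom, 8 at an adjusted p under 0.2, and 2 with no low-count filter, detected genes as a covariate, Rn45s left out or the 3 libraries under 200000 counts left out. In S6K1i-HDL against PBS (3) they were 6 with limma-voom and 11 at 0.2. In TRAF6i-HDL against mTORi-HDL (1) they were 4 with the Wald test, 6 with limma-voom, 7 at 0.2, and 2 with no filter, either covariate, Rn45s left out or the 3 libraries left out. In TRAF6i-HDL against S6K1i-HDL (0) they were 5 with limma-voom, 6 at 0.2, 2 with only the 2 groups compared and 1 without the 3 libraries. In mTORi-HDL against S6K1i-HDL (0) they were 2 with limma-voom and at 0.2, and 1 with no filter, Rn45s left out or the 3 libraries left out. In mTORi-HDL replicates 1-4 against PBS (11) they were 17 with the Rn45s covariate, 7 with only the 2 groups compared and 22 at 0.2. In replicates 5-10 against PBS (1) they were 0 with the Wald test, no filter, detected genes as a covariate or only the 2 groups compared, and 3 at 0.2. Between the mTORi-HDL sets (6) they were 10 with limma-voom, the Rn45s covariate or at 0.2. In S6K1i-HDL replicates 1-6 against PBS (3) they were 8 with limma-voom, 1 with the Rn45s covariate and 12 at 0.2. In mTORi-HDL replicates 1-4 against S6K1i-HDL replicates 1-6 (3) they were 5 with DESeq2 size factors or without the 3 libraries, 7 with the Wald test or limma-voom, 8 with only the 2 groups compared and 10 at 0.2. The 3 comparisons not listed gave 0 throughout. Shares of all tested genes under these settings are not given here. A move of these genes therefore cannot be told apart from a move of calls over all genes. The causes were not tested.

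Fits without 1 library gave 1 to 3 calls in mTORi-HDL against PBS, 3 to 5 in S6K1i-HDL against PBS, 0 to 2 in TRAF6i-HDL against mTORi-HDL, 0 to 1 in TRAF6i-HDL against S6K1i-HDL and in mTORi-HDL against S6K1i-HDL, 4 to 12 in mTORi-HDL replicates 1-4 against PBS, 0 to 1 in replicates 5-10 against PBS, 0 to 7 between the mTORi-HDL sets, 2 to 5 in S6K1i-HDL replicates 1-6 against PBS and 1 to 6 in mTORi-HDL replicates 1-4 against S6K1i-HDL replicates 1-6.

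With the replicate number as a block, calls were 2 in mTORi-HDL against PBS, 3 in TRAF6i-HDL against mTORi-HDL, 0 in replicates 5-10 against PBS, 2 between the mTORi-HDL sets and 5 in mTORi-HDL replicates 1-4 against S6K1i-HDL replicates 1-6. The numbers do not pair the libraries: 0 to 2 of 9 or 10 pairs correlated over 0.1. Among the single genes followed across settings, Cdkn1b in S6K1i-HDL against PBS changed sign, to 0.075 with the Rn45s covariate. Medians near 0 also changed sign, that of the mitosis genes in TRAF6i-HDL against PBS, in mTORi-HDL against S6K1i-HDL and between the S6K1i-HDL sets, and that of the replication genes in mTORi-HDL replicates 5-10 against PBS, as given in the results. The mitosis median of replicates 1-4 against PBS lay between -1.87 and -1.45 over all alternatives, that of the replication genes between -0.76 and -0.28. Few counts per gene limit the precision of Bub1, Cdk1 and Nuf2.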
